A study of Mus musculus with 12 samples.

Results

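Amino acid transporter genes were taken as all genes of the SLC1, SLC3, SLC7, SLC36, SLC38 and SLC43 families, by their symbols, in the deposited table of expression per gene. This gave 42 of the 48034 genes of the table. They were followed in 12 poly(A) RNA libraries of IMCD3 cells, mouse kidney epithelial cells of inner medullary collecting duct origin. All libraries came from 1 subclone, 53a. In this subclone, as known of the study, mifepristone induces a transcription factor of the tubule epithelium in a mutated, dominant-negative form. The 4 groups of 3 libraries, A to C, were mifepristone plus 100 mM added NaCl, mifepristone alone, vehicle plus 100 mM added NaCl, and vehicle alone. Cells of the vehicle groups carry the inducible mutant as well. No cells without it were among the libraries, so an effect of mifepristone itself cannot be told apart from that of the mutant.

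Cells take up amino acids with transporters that differ in what they carry and in what drives them. The heavy chains Slc3a2 and Slc3a1 are not carriers themselves: each binds a light chain of the SLC7 family and brings it to the plasma membrane, where the pair exchanges 1 amino acid for another. The SLC38 and SLC1 carriers use the sodium gradient to load the cell with glutamine and other neutral or acidic amino acids. SLC36 carriers such as Slc36a1 use protons. In hypertonic surroundings kidney cells are known to gather small solutes, neutral amino acids among them, and sodium-coupled uptake of neutral amino acids by the product of Slc38a2 is a classical early part of this. Amino acid shortage acts on several of these genes through the amino acid response, in which factors of the C/EBP-ATF kind bind a short DNA element.

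The bases before the start of 4 of these genes are shown. In the authors' deposited table each of the 4 carries the mark for a ChIP peak close by. Slc7a6 and Slc7a7 encode 2 light chains with the same exchange, Slc38a2 is the most abundant member, and Slc7a11, a textbook gene of the amino acid response, is shown for its matches to the element, not for its change. Each run is the 250 bases before the RefSeq transcription start on GRCm38.p6, read 5′ to 3′ on the strand of the gene, with capitals for TGATGNAA, the core letters of the amino acid response element, on either strand. The windows lie at chr8:106168671-106168920 on the plus strand for Slc7a6, and on the minus strand at chr15:96699729-96699978 for Slc38a2, chr14:54417703-54417952 for Slc7a7 and chr3:50443614-50443863 for Slc7a11.
Slc7a6: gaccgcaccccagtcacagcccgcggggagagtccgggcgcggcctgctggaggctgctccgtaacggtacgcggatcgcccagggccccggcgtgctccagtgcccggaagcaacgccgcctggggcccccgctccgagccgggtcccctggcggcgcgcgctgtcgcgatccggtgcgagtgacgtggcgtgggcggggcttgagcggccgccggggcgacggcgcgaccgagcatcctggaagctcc
Slc38a2: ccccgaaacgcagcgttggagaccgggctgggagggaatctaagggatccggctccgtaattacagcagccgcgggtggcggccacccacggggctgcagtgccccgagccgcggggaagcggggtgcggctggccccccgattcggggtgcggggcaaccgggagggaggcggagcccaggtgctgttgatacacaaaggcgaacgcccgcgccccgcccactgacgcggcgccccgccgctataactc
Slc7a7: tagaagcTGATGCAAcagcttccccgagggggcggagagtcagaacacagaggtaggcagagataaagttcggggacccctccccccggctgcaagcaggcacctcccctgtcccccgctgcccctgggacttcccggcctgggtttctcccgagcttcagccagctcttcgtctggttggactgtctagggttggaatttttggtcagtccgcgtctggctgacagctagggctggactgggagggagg
Slc7a11: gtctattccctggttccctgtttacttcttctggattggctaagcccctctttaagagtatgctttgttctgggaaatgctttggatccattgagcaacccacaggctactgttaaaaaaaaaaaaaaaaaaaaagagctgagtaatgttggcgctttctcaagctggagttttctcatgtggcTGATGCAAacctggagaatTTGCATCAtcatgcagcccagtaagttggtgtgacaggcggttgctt
The Slc7a11 window held 2 matches, TGATGCAA on its own strand and TTGCATCA, the same letters on the other strand, and the Slc7a7 window held 1. The windows of Slc7a6 and Slc38a2 held none. Bases after the start were not searched, so an element there would not be seen. Among 32851 RefSeq promoters of this length, 1134 (3.45%) held at least 1 match and 13 (0.0396%) at least 2. RefSeq gave 42 windows for 31 of the members, some with several starts, and 3 windows of 2 members, Slc7a7 and Slc7a11, held a match. TGGAAA, the core letters of the tonicity element bound by NFAT5, stood on either strand in 6104 promoters (18.6%) and in 9 of the 42 windows, which belong to Slc7a7, Slc7a14, Slc36a3, Slc38a4, Slc38a6, Slc38a7 and Slc43a2. The Slc7a7 window with TGGAAA belongs to another start than the one shown, and none of the 4 windows shown holds it. The motifs share no bases in these windows. A match describes the letters only.

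Of the 42 genes, 18 reached an FPKM (fragments per kilobase of transcript, scaled to library depth) of at least 1 in at least 3 libraries and were tested. The other 24 lay below that filter, Slc1a6 among them with 0 in every library. Each test was a limma fit on log2(FPKM + 0.5) over all 14044 genes that passed, with Benjamini-Hochberg adjustment and a call at an adjusted p under 0.05. Fold changes are on that scale, which understates changes of genes near 0. The labels do not say whether the 3 libraries of a group were separate cultures, so the spread behind the p-values may be technical. Between 41940955 and 49270776 reads per library could be recovered from the values. In all groups the collecting duct and epithelial markers Cdh1, Epcam, Krt8, Krt18 and Cdh16 were high, but Aqp2, Aqp3, Aqp4, Avpr2, Scnn1b and Scnn1g, which define principal cells of the collecting duct, lay below the filter. Library C of mifepristone and library A of vehicle stood apart, with longer genes lower relative to their groups (Spearman's rho of deviation against exon length -0.51 and -0.44 over 13904 genes, against -0.29 to 0.47 in the other libraries). For members with long exons, calls that changed without either of them are given with those values. Whether exon length lies behind such changes was not tested.

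Summed over the 42 genes, FPKM lay at 337 to 353 in mifepristone plus NaCl, 295 to 310.4 in mifepristone, 447 to 455 in vehicle plus NaCl and 289.7 to 296 in vehicle. NaCl libraries were thus above libraries without it in both states, by more in vehicle cells. In vehicle cells Slc38a2 and Slc7a6 made most of that difference. Slc38a2 was the most abundant member in every library, with 39.9 to 40.5% of the sum in mifepristone plus NaCl, 36.7 to 38.2% in mifepristone, 37.6 to 38.1% in vehicle plus NaCl and 37.6 to 37.9% in vehicle. The Slc7a6 share was 18.5 to 18.7% in mifepristone plus NaCl and 4.98 to 5.08% in mifepristone, and it was 26.4 to 27.2% in vehicle plus NaCl and 8.78 to 9.03% in vehicle.

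**Figure D1:**
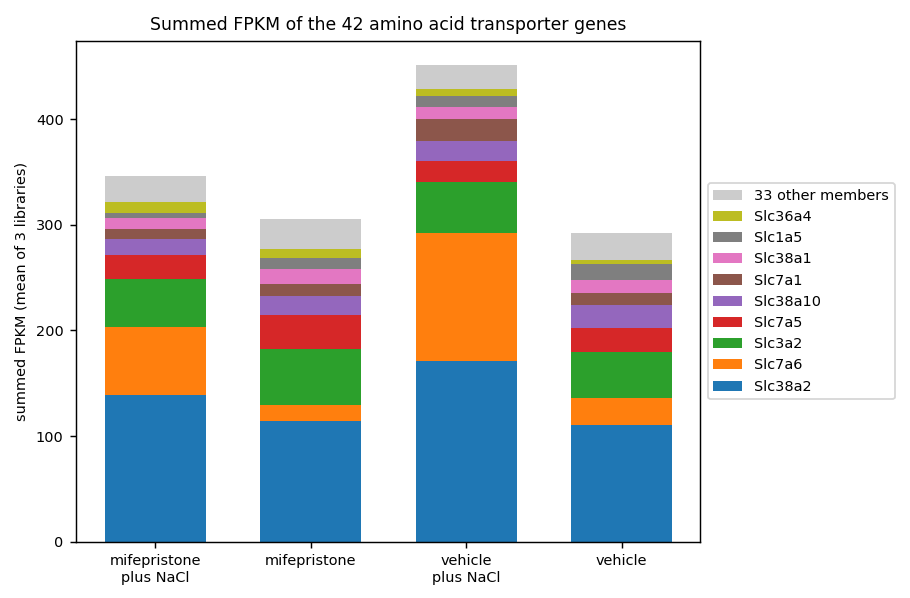
Stacked bars of summed FPKM (y axis, mean of 3 libraries) of the 42 amino acid transporter genes in the 4 groups (x axis). The 9 most abundant genes have a colour each and the other 33 are grey. The vehicle plus NaCl bar is the highest, and the Slc7a6 and Slc38a2 parts differ most in height between the bars.

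With mifepristone and no added NaCl, 7 of the 18 tested genes rose and 5 fell. Over all genes tested 28.3% rose and 31.5% fell, so the members' counts lie near the background for falls and a little above it for rises. In either direction 12 of 18 were called, against 59.7% of all genes tested. With mifepristone under NaCl 6 rose and 7 fell, against 26.8% and 31.9% of all genes tested (58.7% in either direction). NaCl raised 6 and lowered 8 in vehicle cells, against 25.2% and 31.5% of all genes tested (56.7% in either direction). In mifepristone cells it raised 5 and lowered 9, against 24.5% and 34.2% (58.7% in either direction). On the scale with the FPKM offset, called changes of at least 2-fold were found for no member with mifepristone alone (6.42% of all genes tested). With mifepristone under NaCl they were found for Slc7a7, Slc7a1 and Slc1a5 (6.66%). NaCl gave them for Slc7a6 in vehicle cells (4.02%), and for Slc7a6, Slc7a7 and Slc1a5 in mifepristone cells (5.16%). The offset lowers such values. With voom on recovered reads, where no FPKM offset applies, Slc43a2 (log2 1.29) and Slc36a4 (1.05) also passed 2-fold for mifepristone alone. Slc7a4 then passed it for mifepristone under NaCl (1.21). The shares above and the medians below are on the offset scale. The median log2 fold change of the 18 genes was 0.10 for mifepristone without NaCl and -0.11 with it, and -0.10 for NaCl in vehicle cells and -0.18 in mifepristone cells, beside -0.011, -0.034, -0.024 and -0.058 over all genes tested, in the same order. In all, 17 of the 18 were called in at least 1 of these 4 comparisons, 8 in all 4, and Slc36a1 in none. The matching shares over all genes tested were not counted. Since 56.7 to 59.7% of all genes tested were called in each comparison, these member counts alone do not set the members apart from other genes. The 4 comparisons share groups, so their counts are not independent of each other. Slc7a7 is in these counts although it passed the filter only through mifepristone plus NaCl, where it is high.

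**Figure D2:**
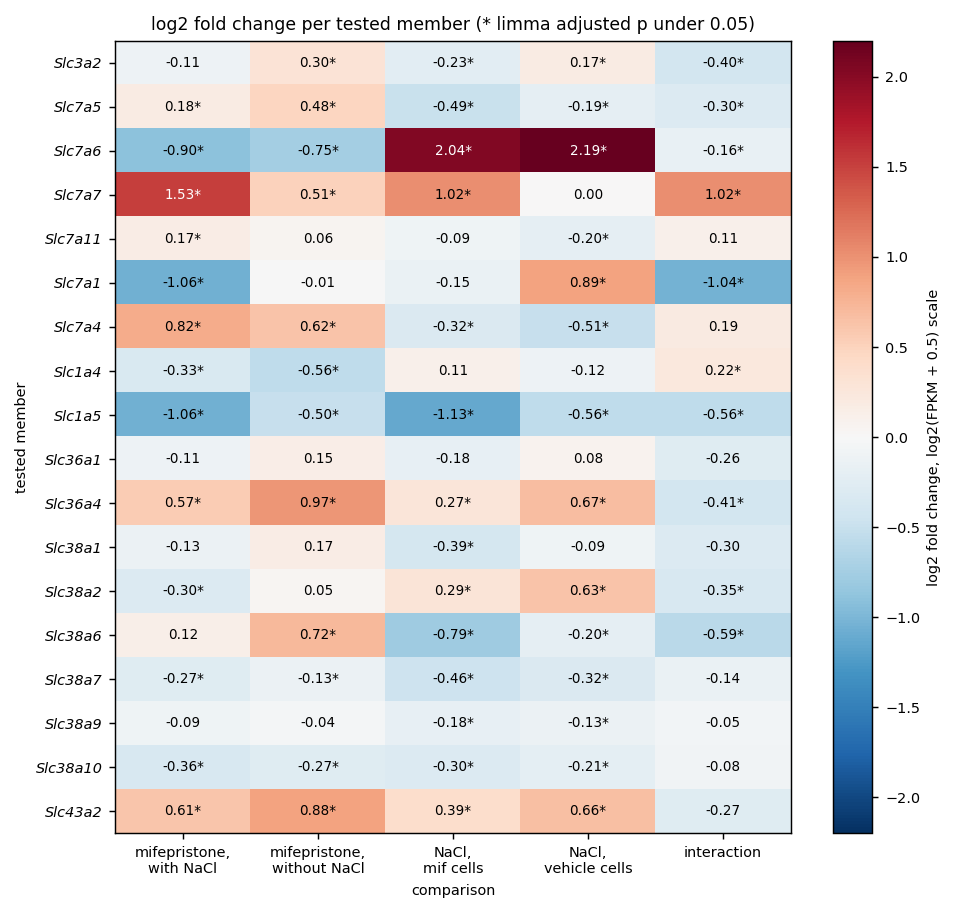
Log2 fold changes on the log2(FPKM + 0.5) scale for the 18 tested genes (rows, by role) in the 4 comparisons and their interaction (columns), with red for higher, blue for lower and an asterisk for an adjusted p under 0.05. Slc7a6 has the largest values, 2.04 for NaCl in mifepristone cells and 2.19 in vehicle cells, and Slc7a7 is at 1.02 for NaCl in mifepristone cells and at 0.0018 in vehicle cells.

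The heavy chain Slc3a2, partner of most SLC7 light chains, was among the 3 most abundant members in every group. Its FPKM was 47.0, 44.4 and 44.0 in mifepristone plus NaCl, 51.0, 52.2 and 55.7 in mifepristone, 50.4, 47.7 and 47.6 in vehicle plus NaCl, and 45.6, 41.9 and 41.6 in vehicle. The mifepristone libraries were the highest, and the groups did not overlap in any of the 4 comparisons. Slc3a2 rose with mifepristone alone (log2 fold change 0.30, SE 0.050, limma adjusted p = 0.000358). NaCl moved it in opposite directions: it fell in mifepristone cells (-0.23, SE 0.050, adjusted p = 0.00221) and rose in vehicle cells (0.17, SE 0.050, adjusted p = 0.0122), a call lost without vehicle plus NaCl library A (0.15, adjusted p = 0.0519). The difference between both NaCl changes passed the test of interaction (-0.40, SE 0.070, adjusted p = 0.00156). Under NaCl, mifepristone gave -0.11 (adjusted p = 0.0919), which was not called.

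The other heavy chain, Slc3a1, pairs with Slc7a9 to take up cystine and dibasic amino acids in the kidney, and mutation of either causes cystinuria in people. It was close to silent: 10, 9 and 10 reads in mifepristone plus NaCl, 4 in each mifepristone library, 9, 6 and 7 in vehicle plus NaCl, and 1, 8 and 7 in vehicle. It shares 601 exon bases with the opposite-strand gene Prepl (mean FPKM 9.65), and whether the counting used strand is not given, so these reads cannot be assigned with certainty. Its partner Slc7a9 had 0 to 5 reads per library.

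Slc7a6, a light chain of Slc3a2 that exports a cationic amino acid in exchange for a neutral amino acid and sodium, changed most with NaCl among the 18 tested genes. It lies at chr8:106168857-106198706 on the plus strand (GRCm38). Its FPKM was 65.8, 62.9 and 64.6 in mifepristone plus NaCl, 15.5, 15.8 and 14.8 in mifepristone, 121, 118 and 124 in vehicle plus NaCl, and 25.9, 26.3 and 26.0 in vehicle. All 4 groups stood clear of each other. NaCl raised it 4.10-fold in mifepristone cells (log2 2.04, SE 0.035, adjusted p = 5.53e-12) and 4.57-fold in vehicle cells (log2 2.19, SE 0.035, adjusted p = 3.84e-12).

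Mifepristone lowered Slc7a6 in both media, by a log2 fold change of -0.90 under NaCl (SE 0.035, adjusted p = 2.15e-09) and of -0.75 without NaCl (SE 0.035, adjusted p = 1.09e-08). The interaction was small (-0.16, SE 0.049, adjusted p = 0.0331) and its call did not hold up: it was lost under quantile normalization (-0.14, adjusted p = 0.0593), with voom on recovered reads (-0.10, adjusted p = 0.171), and without 9 of the 12 libraries, 1 at a time (-0.18 to -0.14 over all 12). Mifepristone thus lowered Slc7a6 with and without NaCl, and left its NaCl rise at about 4-fold.

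Slc7a7, which carries out the same exchange and is mutated in lysinuric protein intolerance, behaved otherwise. Its per-library values are shown for that reason, chosen after they were seen. It lies at chr14:54369442-54417780 on the minus strand. The FPKM was 2.22, 2.13 and 2.12 in mifepristone plus NaCl, 0.822, 0.823 and 0.791 in mifepristone, 0.374, 0.453 and 0.444 in vehicle plus NaCl, and 0.442, 0.353 and 0.475 in vehicle. The vehicle groups overlapped with each other, and both mifepristone groups lay above them. It passed the expression filter only through the 3 mifepristone plus NaCl libraries, where it is high, so its tests are taken from the fit with no filter on level, which its level in 1 group does not decide. There mifepristone raised it with NaCl (log2 1.53, SE 0.061, adjusted p = 1.48e-08) and without (0.51, SE 0.061, adjusted p = 7.32e-05).

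In the same fit NaCl raised Slc7a7 in mifepristone cells (1.02, SE 0.061, adjusted p = 4.03e-07), whereas in vehicle cells the value was 0.0018 (SE 0.061) and not called. The interaction was 1.02 (SE 0.087, adjusted p = 3.07e-05). With voom on recovered reads, where no FPKM offset applies, mifepristone under NaCl gave 2.38 and the interaction 1.45. Slc7a7 shares 232 exon bases with the opposite-strand gene Oxa1l (mean FPKM 10.3), whose own log2 fold changes were 0.12 for mifepristone under NaCl and 0.27 for the interaction. The part of Oxa1l reads in the Slc7a7 values was not tested. The FPKM ratio of Slc7a6 to Slc7a7 was 29.5 to 30.4 in mifepristone plus NaCl, 18.7 to 19.1 in mifepristone, 261 to 323 in vehicle plus NaCl and 54.7 to 74.4 in vehicle.

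Slc7a5, the light chain that takes up leucine and other large neutral amino acids in exchange for glutamine, is a main supplier of amino acids to the growth kinase mTORC1. Its FPKM was 23.5, 21.9 and 23.4 in mifepristone plus NaCl, 32.3, 33 and 31.9 in mifepristone, 20.1, 20.8 and 19.8 in vehicle plus NaCl, and 22.9, 22.9 and 23.6 in vehicle. The mifepristone libraries were the highest and those of vehicle plus NaCl the lowest. Mifepristone raised it under NaCl (log2 0.18, SE 0.036, adjusted p = 0.00118) and without NaCl (0.48, SE 0.036, adjusted p = 5.35e-07). NaCl lowered it in mifepristone cells (-0.49, SE 0.036, adjusted p = 4.90e-07) and in vehicle cells (-0.19, SE 0.036, adjusted p = 0.000889), with an interaction of -0.30 (SE 0.050, adjusted p = 0.00128).

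Slc7a11, the light chain that exchanges glutamate for cystine and so feeds glutathione synthesis, changed little. Its FPKM was 1.69, 1.82 and 1.75 in mifepristone plus NaCl, 1.85, 1.84 and 1.99 in mifepristone, 1.45, 1.53 and 1.54 in vehicle plus NaCl, and 1.74, 1.82 and 1.84 in vehicle. The vehicle plus NaCl libraries were the lowest. NaCl lowered it in vehicle cells (log2 -0.20, SE 0.049, adjusted p = 0.00512), and mifepristone raised it under NaCl (0.17, SE 0.049, adjusted p = 0.0117). It was not called for mifepristone alone (0.057), for NaCl in mifepristone cells (-0.087) or for the interaction (0.11).

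Read together with their heavy chain, the Slc3a2-linked light chains Slc7a5, Slc7a6, Slc7a7, Slc7a8, Slc7a10 and Slc7a11 summed to 1.98 to 2.09 times the Slc3a2 FPKM in mifepristone plus NaCl and 0.888 to 0.988 times in mifepristone. In vehicle plus NaCl the sum was 2.83 to 3.06 times Slc3a2, and in vehicle 1.116 to 1.246 times. Slc7a6 made 70.3 to 70.8% of that light-chain sum in mifepristone plus NaCl, 29.9 to 30.7% in mifepristone, 83.8 to 85.0% in vehicle plus NaCl and 50.0 to 51.1% in vehicle. Slc7a5 made 24.7 to 25.5% in mifepristone plus NaCl, 64.0 to 64.5% in mifepristone, 13.6 to 14.7% in vehicle plus NaCl and 44.6 to 45.5% in vehicle. Slc7a5 thus led the light chains in mifepristone alone, and Slc7a6 in the other groups. These are ratios of RNA levels per length and say nothing of the proteins.

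**Figure D3:**
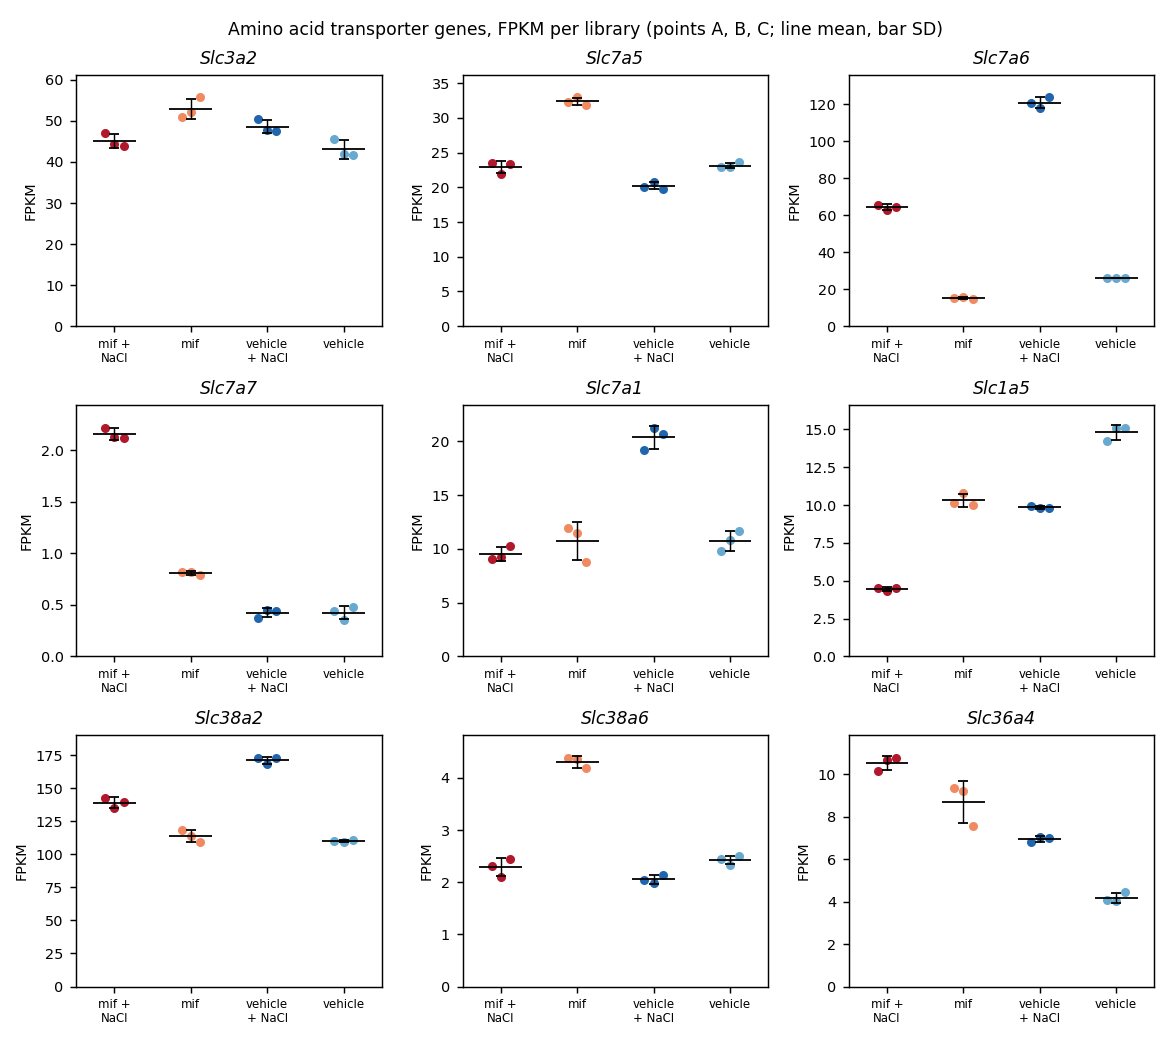
FPKM (y axes, each from 0) of 9 amino acid transporter genes in the 4 groups (x axes; mif is mifepristone), with a point for each library, a line at the mean and a bar of 1 SD. Slc7a6 is high in both NaCl groups, Slc7a1 only stands out in vehicle plus NaCl (19.2 to 21.3), and Slc7a7 is highest in mifepristone plus NaCl (2.12 to 2.22).

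Among the cationic amino acid transporters, Slc7a1, the widespread carrier of arginine and lysine, was raised by NaCl in vehicle cells but not called in mifepristone cells, and the difference itself passed the test. It lies at chr5:148327410-148399904 on the minus strand. Its FPKM was 9.03, 9.29 and 10.3 in mifepristone plus NaCl, 11.9, 11.5 and 8.74 in mifepristone, 19.2, 21.3 and 20.6 in vehicle plus NaCl, and 9.79, 10.8 and 11.7 in vehicle. Vehicle plus NaCl stood clear of the other 3 groups, which overlapped with one another. NaCl gave no call for Slc7a1 in mifepristone cells (log2 -0.15, SE 0.105, adjusted p = 0.239) and raised it in vehicle cells (0.89, SE 0.105, adjusted p = 3.29e-05).

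The interaction for Slc7a1 was -1.04 (SE 0.15, adjusted p = 0.000431), and mifepristone lowered it under NaCl (-1.06, SE 0.105, adjusted p = 6.03e-06). Its exons span 11530 bases, and in mifepristone library C, where long genes were low, it read 8.74. Without that library NaCl lowered it in mifepristone cells (-0.29, adjusted p = 0.00674). For mifepristone alone the value was -0.013 (adjusted p = 0.928) with all libraries and 0.12 without that one, so no direction is given. Without mifepristone library C more of all genes were called too. The interaction then had 3144 higher and 3595 lower of 13977 genes, against 1915 and 2459 of 14044 with all libraries. NaCl in mifepristone cells had 3671 and 4978, against 3440 and 4808.

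Slc7a4, a relative of the cationic carriers for which no such transport is established, ran the other way at low levels. It had 1.84, 1.60 and 1.73 FPKM in mifepristone plus NaCl, 2.11, 2.23 and 2.50 in mifepristone, 0.732, 0.794 and 0.761 in vehicle plus NaCl, and 1.39, 1.33 and 1.18 in vehicle. The 4 groups did not overlap. Mifepristone raised it under NaCl (log2 0.82, SE 0.070, adjusted p = 1.55e-06) and without (0.62, SE 0.070, adjusted p = 1.46e-05), and NaCl lowered it in mifepristone cells (-0.32, adjusted p = 0.00228) and vehicle cells (-0.51, adjusted p = 9.44e-05). Slc7a3, the third cationic carrier with more than a few reads, had 70 to 95 reads per library in mifepristone plus NaCl, 85 to 99 in mifepristone, 59 to 81 in vehicle plus NaCl and 78 to 79 in vehicle, too few for the filter, and with voom on recovered reads it was called in none of the 4 comparisons.

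The neutral exchanger Slc1a5, the main glutamine carrier of many dividing cells, fell in all 4 comparisons. It lies at chr7:16781340-16798274 on the plus strand. Its FPKM was 4.50, 4.33 and 4.51 in mifepristone plus NaCl, 10.1, 10.8 and 10.0 in mifepristone, 9.95, 9.78 and 9.81 in vehicle plus NaCl, and 14.3, 15.1 and 15.1 in vehicle. Vehicle was highest and mifepristone plus NaCl lowest, with the groups in each comparison apart. Mifepristone lowered it under NaCl (log2 -1.06, SE 0.038, adjusted p = 1.16e-09) and without NaCl (-0.50, SE 0.038, adjusted p = 6.18e-07). NaCl lowered it in mifepristone cells (-1.13, SE 0.038, adjusted p = 9.69e-10) and in vehicle cells (-0.56, SE 0.038, adjusted p = 3.64e-07).

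The combined treatment lowered Slc1a5 by more than the sum of both changes on the log scale (interaction -0.56, SE 0.054, adjusted p = 2.50e-05). The authors' deposited table also lists it as lower with NaCl, by a log2 of -1.21 in mutant cells and of -0.59 in control cells. Their values were -0.62 for its interaction and -0.52 for the mutant alone. For neither of these 2 comparisons do the deposited tables give an adjusted p under 0.05 to Slc1a5 or any other member. The rule behind those adjusted p-values is not given in the sources used here. The related Slc1a4, which exchanges alanine, serine and cysteine, fell with mifepristone under NaCl (-0.33, adjusted p = 9.60e-05) and without (-0.56, adjusted p = 1.51e-06). NaCl gave it no call in mifepristone cells (0.11, adjusted p = 0.0729) or vehicle cells (-0.12, adjusted p = 0.0560). The fall in vehicle cells was called with voom on recovered reads (-0.18, adjusted p = 0.00947) and with library quality weights (-0.12, adjusted p = 0.000465). A pseudocount of 1 called it as well (-0.10, adjusted p = 0.0493). In mifepristone cells Slc1a4 was called as higher without mifepristone plus NaCl library C (0.15, adjusted p = 0.0204). Its interaction of 0.22 (adjusted p = 0.0268) lost its call without 6 of the 12 libraries, 1 at a time (0.19 to 0.27 over all 12).

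Of the 5 high-affinity glutamate transporters of the SLC1 family none passed the filter, yet 2 showed a clear rise with NaCl in the recovered reads. Slc1a2, best known as the glutamate transporter of brain astrocytes, had 53, 36 and 63 reads in mifepristone plus NaCl, 8, 11 and 9 in mifepristone, 79, 82 and 91 in vehicle plus NaCl, and 5, 8 and 9 in vehicle. The NaCl libraries lay above all others. Per recovered read, its level with NaCl over that without was 5.59 in mifepristone cells (95% counting interval 3.72 to 8.69) and 11.1 in vehicle cells (7.16 to 18.0). With voom on reads of all genes, a fit chosen after seeing the data, the adjusted p was 3.10e-06 in mifepristone cells and 1.33e-07 in vehicle cells. Mifepristone under NaCl gave a ratio of 0.614 (0.498 to 0.754, adjusted p = 0.00190).

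Slc1a3, likewise known from glia, had 10, 12 and 13 reads in mifepristone plus NaCl and 0 in each mifepristone library, 11 in each vehicle plus NaCl library, and 0, 1 and 1 in vehicle. In mifepristone cells its level was at least 12-fold higher with NaCl, taking 3 reads over the group as the limit a count of 0 allows. In vehicle cells the ratio was 16.0, with a wide interval of 4.08 to 137. The 6 endothelial markers, none above the filter, were also higher in both NaCl groups, with summed FPKM of 0.528 to 0.653 in mifepristone plus NaCl, 0.0501 to 0.0876 in mifepristone, 0.231 to 0.303 in vehicle plus NaCl and 0.0272 to 0.0425 in vehicle, and their part in the glutamate transporter reads was not tested. Both genes remained far below 1 FPKM, at no more than 0.147 for Slc1a2 and 0.0334 for Slc1a3. Slc1a1, the glutamate and cystine carrier of the proximal tubule, had 0 to 2 reads, and Slc1a7 had 0 to 5.

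**Figure D4:**
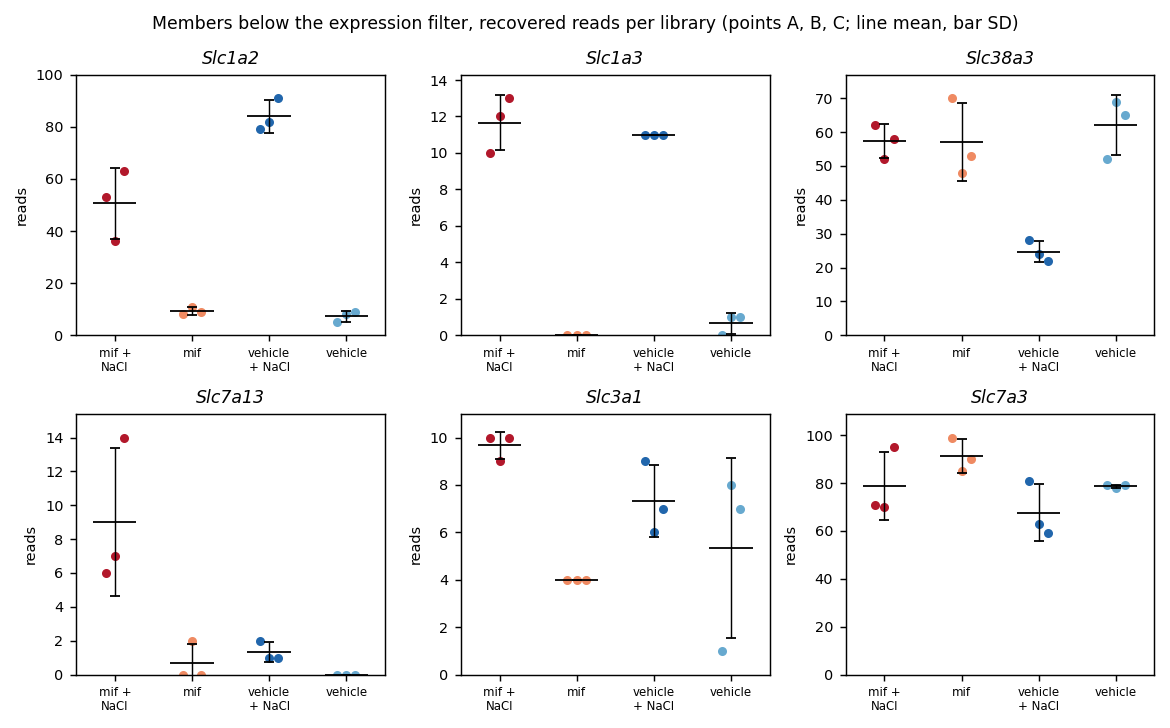
Recovered reads (y axes, each from 0) of 6 amino acid transporter genes below the expression filter in the 4 groups (x axes; mif is mifepristone), with a point for each library, a line at the mean and a bar of 1 SD. Slc1a2 and Slc1a3 are high in both NaCl groups, and Slc38a3 is low only in vehicle plus NaCl (22 to 28 reads).

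Of the SLC38 carriers, 6 of 11 were tested. Slc38a2, which loads cells with small neutral amino acids together with sodium, rose with NaCl in both states. It lies at chr15:96687392-96699730 on the minus strand, next to Slc38a1 and Slc38a4. Its FPKM was 143, 135 and 139.8 in mifepristone plus NaCl, 119, 114 and 109.6 in mifepristone, 173, 168 and 173 in vehicle plus NaCl, and 109.8, 109 and 111 in vehicle. Vehicle plus NaCl was highest, mifepristone plus NaCl next, and the groups without NaCl overlapped.

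NaCl raised Slc38a2 by a log2 fold change of 0.29 in mifepristone cells (SE 0.041, adjusted p = 0.000119) and of 0.63 in vehicle cells (SE 0.041, adjusted p = 2.59e-07). The interaction was -0.35 (SE 0.058, adjusted p = 0.00121). Mifepristone lowered it under NaCl (-0.30, SE 0.041, adjusted p = 7.96e-05) but was not called without NaCl (0.049, adjusted p = 0.331). Slc38a2 thus shared with Slc7a1 and Slc36a4 a smaller NaCl change with mifepristone than with vehicle, each by its own interaction test.

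The neighbour Slc38a1, a carrier of glutamine with the same kind of sodium coupling, had 10.3 to 11.2 FPKM in mifepristone plus NaCl, 11.9 to 15.5 in mifepristone, 11.3 to 12 in vehicle plus NaCl and 11.5 to 13.3 in vehicle. Only its fall with NaCl in mifepristone cells was called (log2 -0.39, SE 0.088, adjusted p = 0.00265). Its exons span 17236 bases, and its lowest mifepristone value, 11.9, came from library C. Without that library mifepristone alone raised it (0.29, adjusted p = 0.00124), mifepristone under NaCl lowered it (-0.13, adjusted p = 0.0413) and the interaction was called (-0.42, adjusted p = 0.00157).

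Slc38a6, a relative whose substrates are less settled, rose with mifepristone by more without NaCl than with it. It had 2.30, 2.11 and 2.45 FPKM in mifepristone plus NaCl, 4.39, 4.35 and 4.18 in mifepristone, 2.04, 1.98 and 2.14 in vehicle plus NaCl, and 2.44, 2.33 and 2.50 in vehicle. The mifepristone libraries stood well above the rest. Mifepristone gave 0.12 under NaCl (SE 0.053, adjusted p = 0.0631) and 0.72 without (SE 0.053, adjusted p = 4.52e-07), with an interaction of -0.59 (SE 0.074, adjusted p = 0.000175). With voom on recovered reads the rise under NaCl was called as well (0.19, adjusted p = 0.0182). NaCl lowered Slc38a6 in mifepristone cells (-0.79, SE 0.053, adjusted p = 2.36e-07) and in vehicle cells (-0.20, SE 0.053, adjusted p = 0.00817).

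The lysosomal glutamine exporter Slc38a7 fell with NaCl in mifepristone cells (log2 -0.46, adjusted p = 1.14e-05) and vehicle cells (-0.32, adjusted p = 0.000247), and with mifepristone under NaCl (-0.27, adjusted p = 0.000641). Its fall with mifepristone alone (-0.13, adjusted p = 0.0442) was lost without 11 of the 12 libraries, 1 at a time. Slc38a9, the lysosomal arginine sensor of mTORC1, fell with NaCl in mifepristone cells (-0.18, adjusted p = 0.00592) and vehicle cells (-0.13, adjusted p = 0.0349), a call lost without any 1 of 4 libraries. Slc38a10, at 14.3 to 15.1 FPKM in mifepristone plus NaCl, 17.7 to 18.8 in mifepristone, 18.5 to 19.7 in vehicle plus NaCl and 21.2 to 22.7 in vehicle, fell in all 4 comparisons, by -0.36 to -0.21.

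Slc38a3, a glutamine carrier known from liver and from the proximal tubule in acidosis, had 62, 52 and 58 reads in mifepristone plus NaCl, 70, 48 and 53 in mifepristone, 28, 24 and 22 in vehicle plus NaCl, and 52, 69 and 65 in vehicle. The vehicle plus NaCl libraries were the lowest and the other 3 groups overlapped. Its ratio with NaCl over without was 1.04 in mifepristone cells (0.833 to 1.29) and 0.385 in vehicle cells (0.290 to 0.507, adjusted p = 0.000140 with voom on reads of all genes). With mifepristone under NaCl the ratio was 2.36 (1.79 to 3.15, adjusted p = 0.000312).

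Among the SLC36 carriers, Slc36a4, a carrier of proline and tryptophan, rose in all 4 comparisons. Its FPKM was 10.1, 10.7 and 10.8 in mifepristone plus NaCl, 9.37, 9.20 and 7.58 in mifepristone, 6.79, 7.06 and 7.0 in vehicle plus NaCl, and 4.07, 4.02 and 4.44 in vehicle. The groups were in that order with no overlap. Mifepristone raised it under NaCl (log2 0.57, SE 0.070, adjusted p = 3.34e-05) and without (0.97, SE 0.070, adjusted p = 4.05e-07). NaCl raised it in mifepristone cells (0.27, SE 0.070, adjusted p = 0.00710) and in vehicle cells (0.67, SE 0.070, adjusted p = 1.21e-05), with an interaction of -0.41 (SE 0.099, adjusted p = 0.00982). Slc36a1, the lysosomal proton-coupled carrier, stayed between 4.41 and 5.95 FPKM with no call. Without mifepristone library C it was called as higher with mifepristone alone (0.23, adjusted p = 0.0139) and lower with NaCl in mifepristone cells (-0.26, adjusted p = 0.00777), with an interaction of -0.35 (adjusted p = 0.0127).

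Slc43a2, which lets large neutral amino acids pass without exchange or ions, rose in all 4 comparisons as well. Its FPKM was 2.30, 2.28 and 2.41 in mifepristone plus NaCl, 1.79, 1.77 and 1.45 in mifepristone, 1.23, 1.45 and 1.39 in vehicle plus NaCl, and 0.616, 0.725 and 0.682 in vehicle. Within each comparison the groups were apart. Mifepristone raised it under NaCl (log2 0.61, SE 0.074, adjusted p = 2.92e-05) and without (0.88, SE 0.074, adjusted p = 1.40e-06). NaCl raised it in mifepristone cells (0.39, SE 0.074, adjusted p = 0.000970) and in vehicle cells (0.66, SE 0.074, adjusted p = 2.16e-05). Its exons span 10042 bases, and its interaction (-0.27, adjusted p = 0.0710) was called without mifepristone library C (-0.35, adjusted p = 0.0100). With all libraries kept, the Slc43a2 interaction was called with a pseudocount of 0.1 (-0.45, adjusted p = 0.0295) and with voom on recovered reads (-0.47, adjusted p = 0.0203). Library quality weights called it for Slc43a2 too (-0.29, adjusted p = 0.0189). Its relative Slc43a3, known in human cells as a carrier of purine bases, had 4, 2 and 11 reads in mifepristone plus NaCl and 0 in every other library.

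The interaction of mifepristone and NaCl was called for 10 of the 18 genes, higher for 2 (Slc7a7 and Slc1a4) and lower for 8 (Slc7a1, Slc38a6, Slc1a5, Slc36a4, Slc3a2, Slc38a2, Slc7a5 and Slc7a6). Over all genes tested 13.6% were higher and 17.5% lower (31.1% in either direction). The members' median was -0.27, beside -0.0078 over all genes tested. Over all genes the split depended on the scale, with 1915 higher and 2459 lower here and 2381 higher and 1974 lower with voom on recovered reads, where the members' counts were 3 and 8. A negative interaction stood for unlike patterns. For Slc7a1, Slc38a2, Slc36a4 and Slc7a6 it was a smaller NaCl change in mifepristone cells than a rise in vehicle cells, for Slc1a5, Slc7a5 and Slc38a6 a deeper fall, and for Slc3a2 a change of direction.

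**Figure D5:**
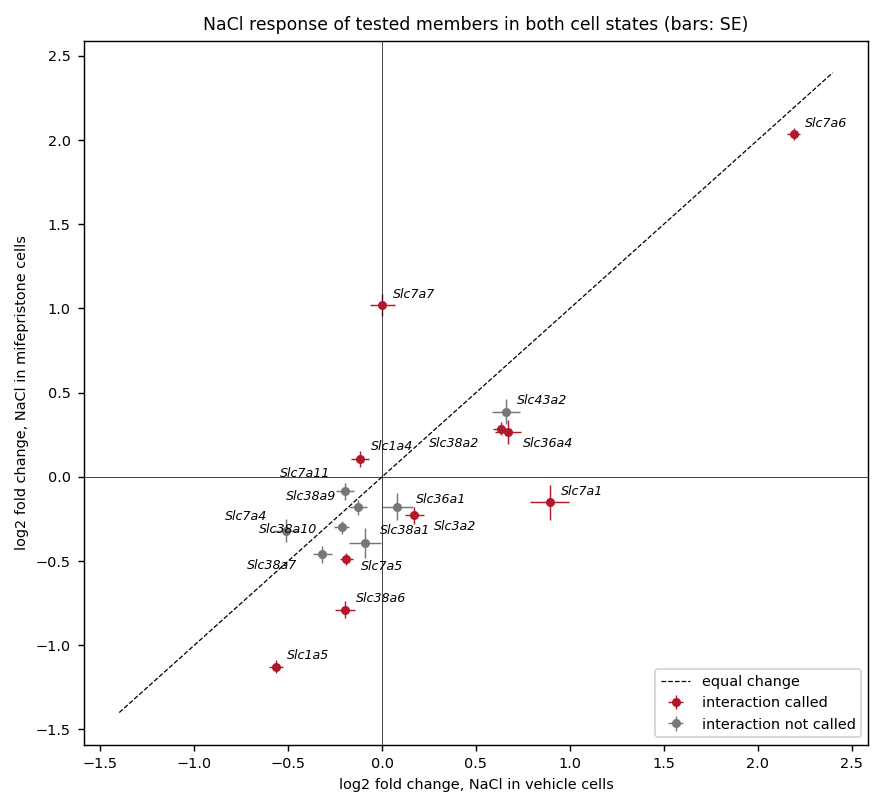
Log2 fold change with NaCl in mifepristone cells (y axis) against that in vehicle cells (x axis) for the 18 tested genes on the log2(FPKM + 0.5) scale, with bars of 1 SE, red where the interaction was called and a dashed line of equal change. Slc7a7 lies above the line and Slc7a1 below it, while Slc7a6 (2.04 in mifepristone and 2.19 in vehicle cells) lies close to it. Both axes use libraries with and without NaCl of their own state and share none.

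The remaining members had few or no reads. In mifepristone plus NaCl, 37 to 38 of the 42 genes had at least 1 read, against 28 to 31 in mifepristone, 31 to 33 in vehicle plus NaCl and 26 to 32 in vehicle. More genes of any kind had a read there too, 26081 to 26962 in mifepristone plus NaCl, 24162 to 24559 in mifepristone, 24273 to 24728 in vehicle plus NaCl and 22701 to 23384 in vehicle. Slc7a13, a partner of Slc3a1 that carries aspartate and glutamate, had 6, 7 and 14 reads in mifepristone plus NaCl, 0, 2 and 0 in mifepristone, 2, 1 and 1 in vehicle plus NaCl, and none in vehicle. Slc43a3 was at least 5.84-fold higher in mifepristone plus NaCl than in mifepristone and at least 5.77-fold higher than in vehicle plus NaCl, against 3 reads over the group. Slc7a15 had 4 to 21 reads per library. Slc7a2, Slc7a8, Slc7a10, Slc7a12, Slc7a14, Slc36a2, Slc36a3, Slc38a4, Slc38a5, Slc38a8, Slc38a11 and Slc43a1 had at most 9 reads in any library, and nothing is read from them.

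The authors' deposited tables mark 16 of 41 members (39.0%) with a nearby ChIP peak, against 17.8% of the 32627 genes listed. Among tested genes the share was 10 of 18 members (55.6%) against 28.4%. The 10 were Slc38a2, Slc7a6, Slc7a5, Slc38a10, Slc7a1, Slc38a1, Slc7a11, Slc7a4, Slc43a2 and Slc7a7. Marked genes moved both ways with mifepristone: without NaCl, Slc7a4, Slc7a5, Slc7a7 and Slc43a2 rose, Slc7a6 and Slc38a10 fell and the other 4 were not called. The rule for these marks is not given in the sources used here, and a mark says nothing of the direction of a change.

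Genes linked to amino acid supply outside these families were counted by lists. Of 26 amino acid transporters of other families 14 were tested, and mifepristone raised 5 and lowered 6 under NaCl (26.8% and 31.9% of all genes tested) and raised 6 and lowered 5 without NaCl (28.3% and 31.5%). NaCl raised 3 and lowered 8 in mifepristone cells (24.5% and 34.2%), and raised 5 and lowered 6 in vehicle cells (25.2% and 31.5%). Slc16a10, which lets aromatic amino acids leave cells, fell with mifepristone alone (log2 -0.75, adjusted p = 1.13e-07). Another 3 genes of the list passed the filter only through groups where they are high. They are in the counts above, but only their mean FPKM is given. Slc6a19, a carrier of neutral amino acids known from the apical side of the proximal tubule, had 0.422 in mifepristone plus NaCl, 0.394 in mifepristone, 2.28 in vehicle plus NaCl and 1.51 in vehicle. The related Slc6a18 had 0.0802 in mifepristone plus NaCl, 0.0610 in mifepristone, 1.38 in vehicle plus NaCl and 0.384 in vehicle. Slc6a13, a carrier of GABA and taurine, had 1.42 in mifepristone plus NaCl, 0.247 in mifepristone, 0.0958 in vehicle plus NaCl and 0.0503 in vehicle.

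Of the 24 genes of the amino acid response, all tested, mifepristone raised 6 and lowered 12 under NaCl (26.8% and 31.9% of all genes tested), and raised 7 and lowered 9 without (28.3% and 31.5%). NaCl raised 7 and lowered 12 in mifepristone cells (24.5% and 34.2%), and raised 6 and lowered 9 in vehicle cells (25.2% and 31.5%). Psat1, an enzyme of serine synthesis, rose in all 4 comparisons, with 2.03 for mifepristone alone. Stc2, which encodes a secreted hormone, fell with NaCl in mifepristone cells (-1.46) and in vehicle cells (-2.24), and Vldlr, a lipoprotein receptor, fell with mifepristone under NaCl (-2.31) and without (-1.72). The 20 cytosolic aminoacyl-tRNA synthetases, which load amino acids onto tRNAs, had a list median of -0.055 for NaCl in mifepristone cells, where 2 rose and 9 fell (24.5% and 34.2% of all genes tested), and of 0.029 in vehicle cells, where 4 rose and 4 fell (25.2% and 31.5%). Of 30 genes of amino acid sensing by mTORC1, 28 were tested, and NaCl raised 6 and lowered 9 in mifepristone cells (24.5% and 34.2% of all genes tested) and raised 7 and lowered 6 in vehicle cells (25.2% and 31.5%). Deptor, an inhibitor of mTOR, fell with mifepristone alone (-1.90, adjusted p = 1.62e-09), and its interaction was 1.29 (adjusted p = 5.10e-06). Of 4 genes of proteins known to bind transporters 2 were tested. NaCl raised 1 and lowered 1 in mifepristone cells (24.5% and 34.2% of all genes tested), and raised 0 and lowered 1 in vehicle cells (25.2% and 31.5%). Arl6ip5, a partner of glutamate transporters, was the one that fell, in mifepristone cells (-0.69) and in vehicle cells (-0.58).

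Markers of other cell types were measured beside these results. Summed over 8 fibroblast markers, FPKM was 3.02 to 3.46 in mifepristone plus NaCl, 5.66 to 6.37 in mifepristone, 0.240 to 0.343 in vehicle plus NaCl and 0.271 to 0.367 in vehicle, and 1 of the 8 passed the filter. The 7 leukocyte markers summed to 5.32 to 5.86 in mifepristone plus NaCl, 3.88 to 4.33 in mifepristone, 2.98 to 3.47 in vehicle plus NaCl and 3.07 to 3.45 in vehicle, again with 1 above the filter. The 10 proximal tubule markers summed to 0.468 to 0.580 in mifepristone plus NaCl, 0.374 to 0.540 in mifepristone, 1.21 to 1.44 in vehicle plus NaCl and 1.16 to 1.49 in vehicle, with 2 of the 10 at 0 in all libraries. The part of such differences in the transporter values was not tested. In bulk RNA, fewer cells of a type and less RNA per cell cannot be told apart.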

How the data were processed

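Poly(A) RNA of subclone 53a of IMCD3 cells was sequenced in 12 libraries, 3 in each of 4 groups, per the labels. The 6 vehicle columns of the expression table carry the sample titles. For the 6 mutant columns, the match to mifepristone samples rests on NaCl, letter and knowledge of the study. Columns left without a sample numbered 0. Per the submitters' processing notes, on GRCm38 (mm10) the authors used DESeq2 1.12.3, SAMtools 1.0, STAR 2.4.2a and Trimmomatic 0.32, in no stated role or order. What counted the reads, on which annotation and whether by strand is not given in the sources used here.

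The authors deposited FPKM values per library and gene. Their deposited comparison tables hold, per the file headers, a mean signal per gene (normalized counts over all libraries), log2 fold changes, adjusted p-values and a mark for a ChIP peak nearby. Rescaled by that mean signal, 100.0% of FPKM values in each library came out as whole reads within a tolerance of 0.05. Exact 95% intervals for ratios of these recovered reads cover counting error alone, and 3 reads were taken as the limit of a count of 0.

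Tests across genes used limma 3.58.1 (R 4.3.3), trended and robust, on log2(FPKM + 0.5) over all 12 libraries with 8 residual degrees of freedom. The fit was also run on simulated data. Those had no exon-length trend and no shared library deviations, so that run does not cover these features. The filter kept 14044 genes that reached an FPKM of 1 in 3 or more libraries, and Benjamini-Hochberg adjustment ran over all of them. Alternatives were other pseudocounts, filters and scalings, voom on recovered reads, library weights, a replicate block and leaving out libraries. Positions and exon overlaps come from GENCODE M21, to which 42 of 42 members matched.

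The members and lists were chosen with earlier results of these data known. By rule, values of every library were given for members called with an absolute log2 fold change of 1 or more and averaging 1 FPKM or more, and for Slc3a2, Slc3a1, Slc38a2 and Slc7a11. All other members with such values were chosen after their values were seen. From each list up to 4 called genes per comparison, by smallest adjusted p, could be named.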

Additional observations from a re-analysis of the deposited data

Results flagged for a closer look

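The NaCl response differed between mifepristone and vehicle cells for 10 of the 18 tested amino acid transporter genes, by the test of interaction in limma. Over all 14044 genes tested 31.1% were called for it in either direction. The interaction, on the log2(FPKM + 0.5) scale, was 1.02 for Slc7a7 and 0.22 for Slc1a4, so the change with NaCl was higher in mifepristone cells. It was -1.04 for Slc7a1, -0.59 for Slc38a6, -0.56 for Slc1a5, -0.41 for Slc36a4, -0.40 for Slc3a2, -0.35 for Slc38a2, -0.30 for Slc7a5 and -0.16 for Slc7a6, where it was lower. The calls of Slc7a6 and Slc1a4 were the least stable of these, being lost without 9 and 6 of the 12 libraries, 1 at a time. Slc7a7 passed the filter only through mifepristone plus NaCl, where it is high, and leaves the test if any 1 of those libraries is dropped. With no filter on level its interaction was the same and was called (adjusted p = 3.07e-05).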

How the results depend on the processing

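Of 2020 values of single members under the alternatives, 1918 kept direction and call, 51 gained a call, 41 lost one and 10 changed sign. The sign changes concern 2 values that were not called as reported. For Slc7a1 with mifepristone alone, -0.013 became 0.079 with library quality weights, 0.059 without vehicle A and mifepristone C together, 0.12 without mifepristone C and 0.045 without vehicle C (-0.092 to 0.12 over all 12 libraries left out). For Slc7a7 with NaCl in vehicle cells, 0.0018 became -0.15 under quantile normalization (adjusted p = 0.0492), -0.041 with voom on recovered reads with or without a filter, -0.021 without vehicle plus NaCl B, -0.014 without vehicle plus NaCl C and -0.054 without vehicle B (-0.054 to 0.042 over all left out); library quality weights called it higher (0.12, adjusted p = 0.0110), so no direction holds. Counts moved most with the filter. With no filter, where 38 members are tested, 12 were higher for mifepristone under NaCl, 13 for NaCl in mifepristone cells and 4 for the interaction. With voom and no filter, chosen after seeing the data, these were 14, 12 and 4 of 38. In that voom fit 6743, 6092 and 2550 of 27791 genes were higher, in the same order. With a minimum FPKM of 5, where 11 members are tested, 3 were higher for mifepristone alone, 2 for mifepristone under NaCl, 3 for NaCl in mifepristone cells and 0 for the interaction, and 4 were lower for NaCl in vehicle cells. Of the 9823 genes tested there, 2946, 2577, 2269 and 1174 were higher in the same order, and 3360 were lower for NaCl in vehicle cells. Of the 27791 genes in the main kind of fit without a filter, 6144 were higher and 4880 lower for mifepristone under NaCl. For NaCl in mifepristone cells these were 5924 and 5041, and for the interaction 2624 and 2461. Quality weights gave 11 lower for mifepristone under NaCl, where 5584 of all 14044 genes were lower, against 4474 in the main fit. Quantile normalization gave 1 higher for the interaction, where 2385 of all genes were higher, against 1915. Leaving out 1 library gave 0 to 2 members higher and 7 to 11 lower for the interaction. Slc7a7 leaves that test if a mifepristone plus NaCl library is dropped. Over all genes tested in these fits (13884 to 13990), 1447 to 3144 were higher and 1918 to 3595 lower. The 11 lower came without mifepristone C, where 3595 of 13977 genes were lower, against 2459 of 14044 in the main fit. The cause of these shifts was not tested, apart from the number of members tested. Whether the letters A to C pair libraries is not stated. Same-letter correlations of deviations ran from -0.50 to 0.29 and 6 of 18 were over 0.1. They cannot decide it, since deviations also ran with exon length and libraries of unlike letters reached 0.61 (mifepristone C with vehicle A). The replicate block lost 3 calls, of Slc38a7 for mifepristone alone (adjusted p = 0.0694), Slc38a9 for NaCl in vehicle cells (0.0597) and the Slc7a6 interaction (0.0683), and changed no other. Depth limits the 24 members below the filter, where 3 reads equal 0.061 to 0.072 CPM.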
